A study of Mus musculus with 4 samples.

Results

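Genes that write, read and erase methylation of lysine 9 of histone H3 (H3K9) were examined in the RNAseq of F123-ESCs. The group was chosen by gene symbol and holds 10 of the 24026 genes listed: the writers Ehmt1, Ehmt2, Setdb1 and Suv39h2, the corepressor Trim28, the heterochromatin protein 1 (HP1) readers Cbx1, Cbx3 and Cbx5, and the erasers Kdm3a and Kdm4c. F123-ESC is a male mouse embryonic stem cell (ESC) line from an F1 cross, with maternal chromosomes of the S129 strain and paternal chromosomes of CAST (Mus musculus castaneus). All 4 libraries, replicates 1 to 4, belong to a single untreated group of this line, kept in LIF on feeder fibroblasts, moved to gelatin without feeders for at least 2 passages and collected about 48 h after plating. No source used here says whether the libraries came from separate cultures, so the p-values measure the spread between these libraries, which may be technical. Genotype, treatment and time were the same in all libraries, so the comparisons are between the alleles of a gene, between genes and between libraries.

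Methylation of H3K9 marks silent chromatin. Ehmt1 (GLP) and Ehmt2 (G9a) work as a heterodimer that places most of the dimethyl mark in euchromatin, Setdb1 places the trimethyl mark at endogenous retroviruses and other repeats, and Suv39h2 with its X-linked relative Suv39h1 does so at pericentromeric repeats. Trim28 (KAP1) is brought to DNA by KRAB zinc finger proteins and recruits Setdb1, HP1 proteins bind methylated H3K9 through their chromodomain, and the Jumonji demethylases Kdm3a and Kdm4c remove the mark. In ESCs this machinery keeps retroviral elements and lineage genes silent.

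Each value is an RPKM of one allele in one library: the reads that cover a SNP of that allele, per kilobase of gene length and scaled to the total reads of that allele in that library. Between 16716721 and 28772351 reads per allele and library stood behind the values, with replicate 4 the shallowest on both alleles and the lowest library for 53.5% of genes, and a single allele of a member held between 256 and 32090 reads. X-linked genes, of which a male line with a maternal X carries only the S129 copy, had 0.112% to 0.132% of their reads on CAST, taken here as the level of wrongly assigned reads. Of the markers examined, 7 of 7 of pluripotent ESCs reached 1 RPKM, with a summed level of 1171 to 1483 RPKM per library and replicate 4 at 1171 RPKM. Of 6 feeder fibroblast markers, 5 reached 1 RPKM and none was at 0, with a summed level of 178 to 224 RPKM of which Col1a2 made 165.8 RPKM, and 3 of 4 primitive endoderm markers reached 1 RPKM with a sum of 5.42 to 6.32 RPKM. Of 3 neural progenitor markers only Nes, at 76.2 RPKM, reached 1 RPKM, and the part of other cells in the values below was not tested.

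The levels of the members, taken as the mean of both alleles in a library, spanned from 4.12 ± 0.415 RPKM (SD, n = 4) for Suv39h2 to 1310 ± 123.2 RPKM (SD, n = 4) for Trim28. Of all 24026 genes listed, 64.5% had a lower level than Suv39h2 and 99.7% a lower level than Trim28. These listed genes include 3783 at 0 throughout and many too low to be tested between alleles. The place of the members among the tested genes alone was not computed. In RNA from bulk cells, fewer expressing cells and less RNA per cell cannot be told apart. As deposited, the order was Trim28, Cbx3, Cbx1, Cbx5, Ehmt2, Setdb1, Kdm4c, Kdm3a, Ehmt1 and Suv39h2. The ranges over libraries overlapped between Cbx1 and Cbx5, between Setdb1 and Kdm4c, and between Kdm4c and Kdm3a. Within libraries, Cbx1 was above Cbx5 in 4 of 4, while Setdb1 was above Kdm4c and Kdm4c above Kdm3a in 3 of 4. A level also depends on how many SNPs the transcript holds, because reads without a SNP were not counted, and on the gene length that was divided out.

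That length was recovered from the values and equalled, for all 10 members, the first transcript listed for the gene in GENCODE M21. For Trim28 this was a noncoding transcript of 851 bases where all annotated exons cover 4158 bases, and for Cbx3 a transcript of 1080 bases where the exons cover 5992 bases. Divided by the length of all exons, the level of Trim28 was 268 ± 25.2 RPKM (SD, n = 4) and that of Cbx3 was 36.2 ± 5.62 RPKM (SD, n = 4). Trim28 remained the highest member and Suv39h2 the lowest, whereas Cbx5 at 43.0 ± 2.26 RPKM (SD, n = 4) then stood above both Cbx3 and Cbx1. The order on exon length was Trim28, Cbx5, Cbx3, Cbx1, Ehmt2, Setdb1, Kdm4c, Kdm3a, Ehmt1 and Suv39h2, with overlapping ranges only between Cbx1 and Ehmt2.

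**Figure D1:**
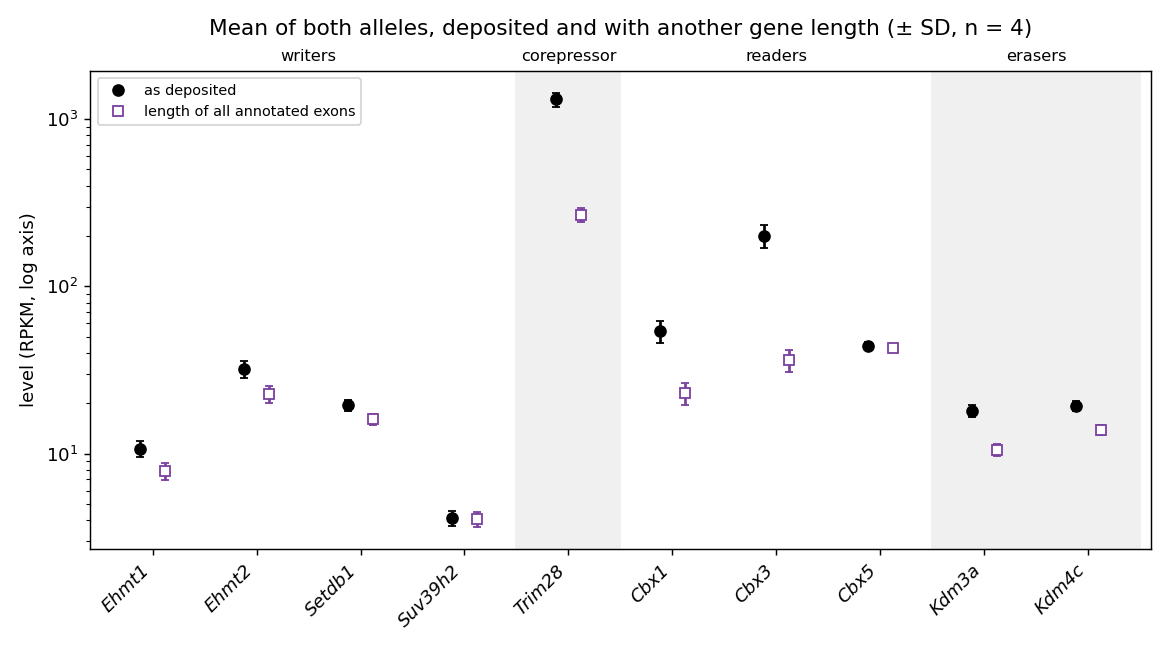
Level of each member in RPKM (log axis, mean of both alleles) as deposited (filled circles) and with all annotated exons as the length (open squares). Bars are the SD over 4 libraries. Trim28 drops from 1310 to 268 RPKM and Cbx3 from 201 to 36.2 RPKM, while Cbx5 and Suv39h2 stay nearly in place.

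Which allele carried the transcripts was asked for each member by the difference between S129 and CAST within a library, on the scale of log2(RPKM+0.1) and written S129 minus CAST. It was tested by limma over the 13341 genes with at least 1 RPKM summed over both alleles, and a gene was called when its Benjamini-Hochberg adjusted p was under 0.05. All 10 members were tested and 7 were called, beside 61.4% of autosomal genes. Of these, 6 were higher on CAST (Ehmt2, Setdb1, Trim28, Cbx1, Cbx3 and Kdm4c) beside 32.5% of autosomal genes, and 1, Cbx5, was higher on S129 beside 28.9%. The median difference of the members was -0.25 where that of autosomal genes was -0.02, and the median size without sign was 0.25 for the members and 0.29 for autosomal genes. Thus the members differed between alleles about as often and as much as genes in general. The difference had one direction in all 4 libraries for 9 members beside 70.9% of autosomal genes, and the 4 values of one allele lay wholly apart from those of the other for 3 members, Ehmt2, Setdb1 and Kdm4c, beside 43.6%.

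**Figure D2:**
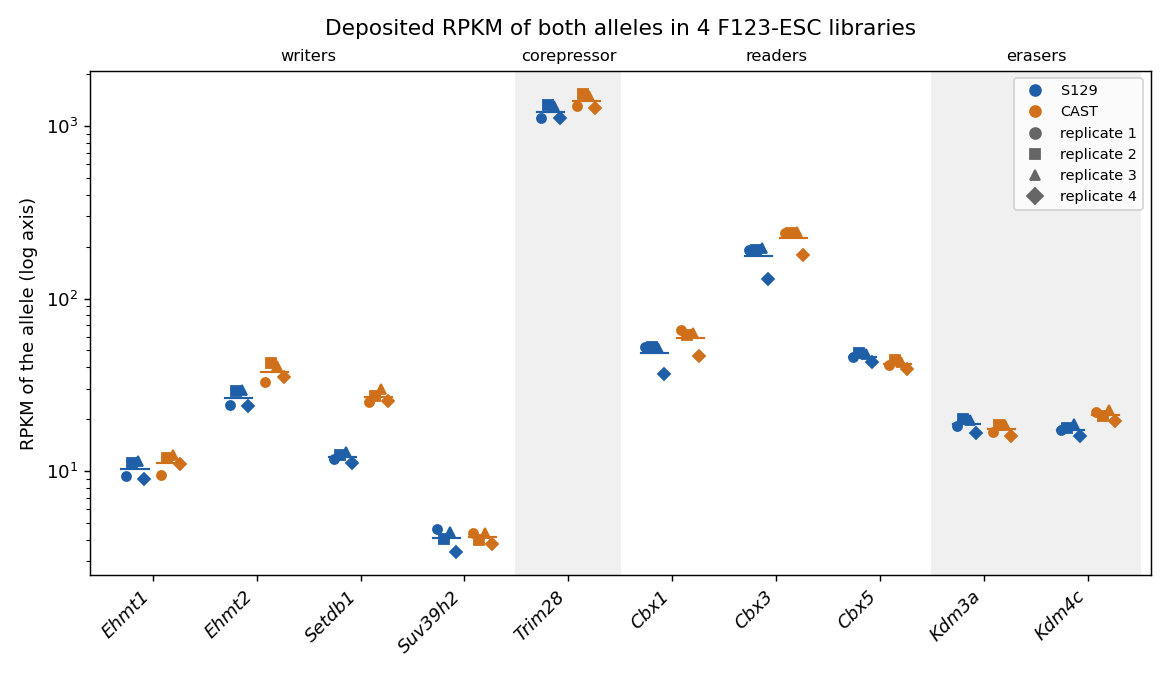
RPKM of the S129 allele (blue) and of the CAST allele (orange) of each member in each of 4 libraries (log axis). Symbols mark the replicates and bars the mean. The alleles lie apart for Setdb1, with S129 between 11.1 and 12.9 RPKM and CAST between 25.2 and 29.9 RPKM, and coincide for Suv39h2.

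Among the writers, Setdb1 (ENSMUSG00000015697, chr3:95323525-95357202, minus strand) showed the largest difference of all members. Its S129 allele stood at 11.8, 12.4, 12.9 and 11.1 RPKM in replicates 1 to 4 and its CAST allele at 25.2, 27.3, 29.9 and 25.4 RPKM. The lowest CAST value was above the highest S129 value by a wide margin in a gene that held 1087 to 3989 reads per allele and library. The difference was -1.15 on the log2 scale (SE 0.036, 95% interval -1.25 to -1.06, limma adjusted p = 4.4e-05), which is 2.23-fold higher on CAST and past 2-fold, as were 11.9% of autosomal genes in either direction. In terms of reads, 31.8% of the 20746 allele-assigned reads of Setdb1 came from S129 (exact binomial 95% interval 31.2% to 32.4%), and the share ran from 31.0% to 32.6% over the libraries.

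Setdb1 lies in a stretch of chromosome 3 whose genes as a whole had more reads on CAST. The median difference of the 622 tested genes of the chromosome was -0.72, and that of the 92 other tested genes within 5 Mb of Setdb1 was -0.87, or 1.83-fold higher on CAST. Of these neighbours, 84 of 92 were below 0 and 24 of 92 had a difference further toward CAST than Setdb1. With the chromosome median taken out in each library, Setdb1 kept a difference of -0.44 (limma adjusted p = 0.00097, 1.35-fold), and with the median within 5 Mb taken out, one of -0.28 (SE 0.035, limma adjusted p = 0.0030, 1.22-fold). The median of the neighbours thus came to most of the log2 difference of Setdb1, and the remainder was still larger than the spread between libraries.

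Ehmt2 (ENSMUSG00000013787, chr17:34898469-34914052, plus strand) had S129 values of 24.0, 28.9, 29.5 and 23.8 RPKM and CAST values of 32.8, 42.1, 40.7 and 35.2 RPKM in replicates 1 to 4. Replicates 1 and 4 were the low libraries on both alleles, and CAST was higher in each library without overlap of the ranges. The difference of -0.50 (SE 0.036, 95% interval -0.60 to -0.41, limma adjusted p = 0.00048) is 1.42-fold higher on CAST. Unlike around Setdb1, the 144 tested genes within 5 Mb had a median of -0.03, and Ehmt2 kept -0.48 with it taken out (limma adjusted p = 0.00063). Of 23561 reads of Ehmt2, 42.3% were S129 reads (exact binomial 95% interval 41.7% to 43.0%).

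Ehmt1 (ENSMUSG00000036893, chr2:24789928-24919614, minus strand), the partner of Ehmt2, stood at 9.32, 11.2, 11.5 and 8.94 RPKM on S129 and at 9.45, 11.9, 12.4 and 10.9 RPKM on CAST. The alleles overlapped, although CAST was higher in 4 of 4 libraries, by as little as 0.02 in replicate 1 and as much as 0.29 in replicate 4 on the log2 scale. The mean difference of -0.13 was not called (SE 0.055, 95% interval -0.27 to 0.02, limma adjusted p = 0.10), and without replicate 4 it was -0.07. Suv39h2 (ENSMUSG00000026646, chr2:3455815-3475031, minus strand) had the lowest level, with 4.58, 4.02, 4.45 and 3.40 RPKM on S129 and 4.39, 3.99, 4.38 and 3.77 RPKM on CAST. S129 was higher in 3 of 4 libraries and lower in replicate 4, and the difference of -0.01 had a 95% interval of -0.14 to 0.11 (limma adjusted p = 0.83), so that a difference of more than 0.14 in either direction lay outside it. The sign of this difference was positive without replicate 4, at 0.03, and with the median of the chromosome taken out, at 0.002. With 256 to 570 reads, Suv39h2 was also the least precisely counted member, and its lowest value of 3.40 RPKM had a Poisson 95% interval of 2.996 to 3.84 RPKM for counting error.

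The region upstream of the annotated start is shown for Ehmt2 and Setdb1, because the alleles of these writers differed most among the members. This holds before the surroundings are taken out. With the 5 Mb median taken out, Setdb1 at -0.28 differed less than Cbx3 at -0.48, Ehmt2 at -0.48 and Cbx1 at -0.37. The letters are those of the reference strain in RefSeq (GRCm38.p6, the build of mm10), not of S129 or CAST, and are written 5′ to 3′ on the strand of the gene. Capitals mark matches on either strand to the GC box GGGCGG, the CCAAT box CCAAT and the ETS motif CCGGAAG, none of which overlap here.
Ehmt2, chr17:34898224-34898468, plus strand: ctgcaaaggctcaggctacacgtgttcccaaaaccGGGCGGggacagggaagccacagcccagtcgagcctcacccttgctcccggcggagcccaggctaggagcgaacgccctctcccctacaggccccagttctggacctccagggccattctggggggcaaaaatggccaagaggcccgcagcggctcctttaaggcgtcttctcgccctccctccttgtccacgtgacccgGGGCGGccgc
Setdb1, chr3:95357203-95357452, minus strand: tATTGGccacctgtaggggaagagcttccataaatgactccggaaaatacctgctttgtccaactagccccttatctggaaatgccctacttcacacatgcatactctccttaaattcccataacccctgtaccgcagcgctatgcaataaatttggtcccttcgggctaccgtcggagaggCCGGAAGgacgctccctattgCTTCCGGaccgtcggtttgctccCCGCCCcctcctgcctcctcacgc
The Ehmt2 stretch of 245 bases held 16 CpG and 2 GC boxes, and the Setdb1 stretch of 250 bases held 13 CpG, 1 GC box, 1 CCAAT box and 2 ETS motifs.

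Over the whole RefSeq promoter windows of 300 bases, most members had more CpG than the median of all windows. The windows of expressed genes alone were not examined, so whether the members differ from these was not tested. The window nearest to the annotated start had 15 to 34 CpG in 9 members, where the median of 32851 windows was 7 and the upper quartile 20, and 8 members were above that quartile. For Trim28 the only window surrounds a start at chr7:13024152, inside the annotated gene and far from its first base at 12999114. Kdm4c had 0 CpG in its nearest window and 28 in its other one. The GC box was found in 9 of 10 members beside 35.7% of all windows, the CCAAT box in 3 beside 37.4%, the ETS motif only in Setdb1 beside 8.9%, and the TATA box TATAAA in none beside 13.6%. These are matches of letters, and no binding was measured here.

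Trim28 (ENSMUSG00000005566, chr7:12999114-13031035, plus strand), the scaffold between KRAB zinc finger proteins and Setdb1, was by far the highest member. Its S129 allele stood at 1109, 1322, 1307 and 1117 RPKM and its CAST allele at 1312, 1532, 1503 and 1277 RPKM in replicates 1 to 4. The alleles overlapped between libraries, because replicates 1 and 4 were low on both, but within each library CAST was higher by a nearly constant amount of 0.19 to 0.24 on the log2 scale. The mean difference was -0.21 (SE 0.030, 95% interval -0.29 to -0.13, limma adjusted p = 0.0040, 1.16-fold), and it stayed called at -0.18 with the median of its 46 neighbours within 5 Mb taken out (limma adjusted p = 0.0091). At 16542 to 32090 reads per allele and library, Trim28 was the most deeply covered member.

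The HP1 genes Cbx1 and Cbx3 favoured CAST and Cbx5 favoured S129. Cbx3 (HP1γ, ENSMUSG00000029836, chr6:51470360-51483704, plus strand) stood at 191, 190.3, 195 and 130.5 RPKM on S129 and at 241, 239, 243 and 178 RPKM on CAST in replicates 1 to 4. Within the first 3 libraries the values of an allele were nearly equal and replicate 4 was far below them on both alleles, so the CAST value of replicate 4 fell within the range of S129. The difference of -0.36 (SE 0.038, 95% interval -0.46 to -0.26, limma adjusted p = 0.0017) is 1.28-fold higher on CAST. The genes around Cbx3 leaned the other way, with a median of 0.12 over 57 genes within 5 Mb and 0.20 over 636 genes of chromosome 6. Taken against these, the difference of Cbx3 grew to -0.48 (limma adjusted p = 0.00063) and to -0.56 (limma adjusted p = 0.00054).

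Cbx1 (HP1β, ENSMUSG00000018666, chr11:96789127-96808640, plus strand) had 52.7, 52.6, 51.7 and 36.6 RPKM on S129 and 66.0, 61.4, 63.2 and 46.5 RPKM on CAST. As for Cbx3, replicate 4 was low on both alleles and made the ranges overlap, while CAST was higher in 4 of 4 libraries. The difference was -0.30 (SE 0.036, 95% interval -0.39 to -0.20, limma adjusted p = 0.0026, 1.23-fold), and -0.37 with the median of 172 genes within 5 Mb taken out (limma adjusted p = 0.0019).

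Cbx5 (HP1α, ENSMUSG00000009575, chr15:103191544-103239816, minus strand) had 46.0, 48.3, 47.5 and 42.6 RPKM on S129 and 41.4, 44.3, 42.9 and 39.3 RPKM on CAST. S129 was higher in each library by 0.12 to 0.15 on the log2 scale, with overlap of the ranges between libraries. The difference of 0.13 (SE 0.029, 95% interval 0.06 to 0.21, limma adjusted p = 0.016, 1.10-fold) was close to the threshold, and it was no longer called without replicate 1, 2 or 3 (limma adjusted p = 0.063, 0.063 and 0.069).

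**Figure D3:**
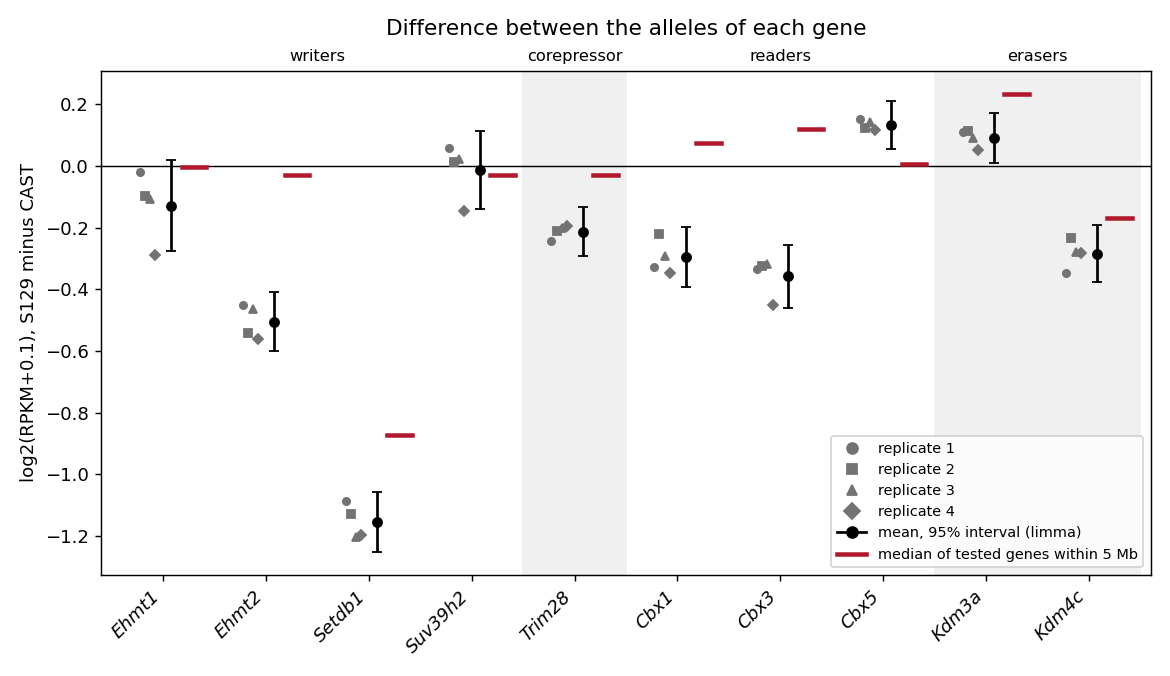
Difference between the alleles of each member, S129 minus CAST on log2(RPKM+0.1). Grey symbols are single libraries, black points the mean with its limma 95% interval and red bars the median of the tested genes within 5 Mb. Setdb1 at -1.15 stands near the -0.87 of its neighbours, whereas Ehmt2, Cbx1 and Cbx3 stand far below theirs.

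Of the erasers, Kdm4c (ENSMUSG00000028397, chr4:74242497-74405860, plus strand) had 17.2, 17.6, 18.7 and 16.0 RPKM on S129 and 21.9, 20.7, 22.7 and 19.5 RPKM on CAST. The alleles did not overlap, and the difference was -0.28 (SE 0.034, 95% interval -0.38 to -0.19, limma adjusted p = 0.0025, 1.22-fold). Only 7 other tested genes lie within 5 Mb of Kdm4c. Their median was -0.17, and with it taken out the difference of -0.12 was not called (limma adjusted p = 0.087).

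Kdm3a (ENSMUSG00000053470, chr6:71588972-71632990, minus strand) had 18.2, 20.0, 19.8 and 16.5 RPKM on S129 and 16.9, 18.4, 18.6 and 15.9 RPKM on CAST. S129 was higher in 4 of 4 libraries, by 0.05 to 0.11 on the log2 scale, and the mean difference of 0.09 did not pass the threshold (SE 0.031, 95% interval 0.009 to 0.17, limma adjusted p = 0.056). Its direction turned against its surroundings, since the 42 genes within 5 Mb had a median of 0.23, and with that median taken out Kdm3a stood at -0.14, called toward CAST (limma adjusted p = 0.033). Kdm3a and Cbx3 lie on the same chromosome, and both were lower on S129 than the genes around them. With the 5 Mb median taken out, 7 members were called, 6 toward CAST and 1 toward S129, beside 56.2% of autosomal genes, 27.9% toward CAST and 28.2% toward S129. With the chromosome median taken out, 8 members were called, 7 toward CAST and 1 toward S129, beside 57.7% of autosomal genes, 28.8% toward CAST and 28.9% toward S129.

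Paralogues were compared within libraries on the mean of both alleles, in 4 pairs. Ehmt2 was higher than Ehmt1 by 1.58 ± 0.030 on the log2 scale (SD, n = 4), or 2.98-fold, in 4 of 4 libraries (exact permutation of the signs, two-sided, p = 0.125, which is as low as 4 libraries can give, and 0.125 after Benjamini-Hochberg adjustment over the 4 pairs). The ratio was almost the same in every library although both levels varied, with Ehmt1 at 9.38, 11.6, 11.95 and 9.94 RPKM and Ehmt2 at 28.4, 35.5, 35.1 and 29.5 RPKM. Divided by exon length, the difference was 1.52.

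Cbx3 was higher than Cbx1 by 1.90 ± 0.029 (SD, n = 4), or 3.73-fold, and this ratio too varied little between libraries. Against Cbx5, Cbx3 was higher by 2.18 ± 0.18 (SD, n = 4) and Cbx1 by 0.28 ± 0.18 (SD, n = 4), each in 4 of 4 libraries (the same exact permutation, p = 0.125 for each pair, also after adjustment). On one allele alone, Cbx1 minus Cbx5 was 0.055 for S129 (exact permutation, p = 0.625), where replicate 4 went the other way with Cbx1 at 36.6 and Cbx5 at 42.6 RPKM, and 0.49 for CAST. Both differences against Cbx5 changed sign with the length of all exons, to -0.26 for Cbx3 and to -0.92 for Cbx1, whereas Cbx3 stayed above Cbx1 by 0.65. Which HP1 gene was highest therefore depended on the length that was divided out.

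How far reads of the HP1 genes could be confused was read from their transcripts. The longest identical stretch between the coding sequences of Cbx1 and Cbx5 was 20 bases, between Cbx3 and Cbx5 14 bases and between Cbx1 and Cbx3 11 bases, all far below the read length of 150 bases. The longest is shown in capitals with the bases around it, from GENCODE M21 transcripts on mm10. It lies in a coding exon, exon 2 of the Cbx1 transcript and exon 3 of the Cbx5 transcript.
Cbx1, chr11:96800847-96800896, plus strand: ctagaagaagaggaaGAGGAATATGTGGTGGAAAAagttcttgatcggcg
Cbx5, chr15:103213123-103213172, minus strand: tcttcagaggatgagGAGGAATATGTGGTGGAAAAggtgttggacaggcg
No window of 50 or 150 bases in the coding transcript of Cbx1 or of Cbx5 occurred unchanged in a transcript of another gene. These transcripts hold 1251 bases for Cbx1 and 1146 bases for Cbx5, where all annotated exons cover 4273 and 9006 bases. The exon sequence outside them was not searched. For Ehmt1 and Ehmt2 the longest identical coding stretch was likewise 20 bases.

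Cbx3 instead shares sequence with its pseudogenes. Of the 150-base windows of its coding transcript, 18.0% (282 of 1570) occurred unchanged in a transcript of another gene, among them Cbx3-ps6 and Cbx3-ps7, and 29.1% of its 50-base windows did. The annotation names 8 pseudogenes for Cbx3, of which 0 are listed with values here, and for none of the other members does it name one. The part of such reads in the level or the allele difference of Cbx3 was not tested, and both are uncertain to that extent. Of the other members, in the coding transcript searched for each, Setdb1 shared 1.14% of its 150-base windows (with Gm4349) and the remaining 8 members none. At 50 bases, Setdb1 shared 9.18% (with Cers2, Gm37500 and Gm4349), Suv39h2 4.28% (with Dclre1c) and the remaining 7 members none. Exons outside these transcripts were not searched.

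Exons also overlap between genes. Those of Setdb1 share 75 bases with Cers2 on the opposite strand, a gene at 44.3 RPKM, and 249 bases with Gm37500. Suv39h2 shares 357 bases with Dclre1c on the opposite strand, at 2.64 RPKM, and 83 bases with the antisense gene Gm13184, and Ehmt1 shares 21 bases with Gm37139 on its own strand. The libraries were made with a stranded kit, but the sources used here do not give the strand setting of the counting.

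Across libraries the members varied as other genes did, with a median coefficient of variation of 9.74% (5.25% for Cbx5 to 15.5% for Cbx3) beside 9.66% for all genes tested. Cbx1 and Cbx3 stood apart in replicate 4. The level of Cbx3 was 216, 214, 219 and 154 RPKM in replicates 1 to 4 and that of Cbx1 was 59.3, 57.0, 57.4 and 41.5 RPKM. Replicate 4 was thus below the mean of the other 3 libraries by 0.49 for Cbx3 and 0.48 for Cbx1 on the log2 scale of the level, while the median of all genes in that library was -0.13.

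Only 4.00% of genes were lower in replicate 4 than Cbx3 and 4.27% lower than Cbx1, and the other 8 members lay between -0.12 and -0.25. Cbx5, the third HP1 gene, was at -0.14, close to the median of all genes. Without replicate 4 the mean level was 216.6 RPKM for Cbx3 and 57.9 RPKM for Cbx1. Both levels met Dixon's criterion for a library far from the others, as did 5.61% of all genes in some library and 3.06% with replicate 4 as the lowest. Replicate 4 had the lowest sum of pluripotency markers and the fewest reads, and the part of these in the low Cbx1 and Cbx3 levels was not tested. In replicate 1, Ehmt1 and Ehmt2 were the lowest members, at -0.24 and -0.23 against a median of -0.04.

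**Figure D4:**
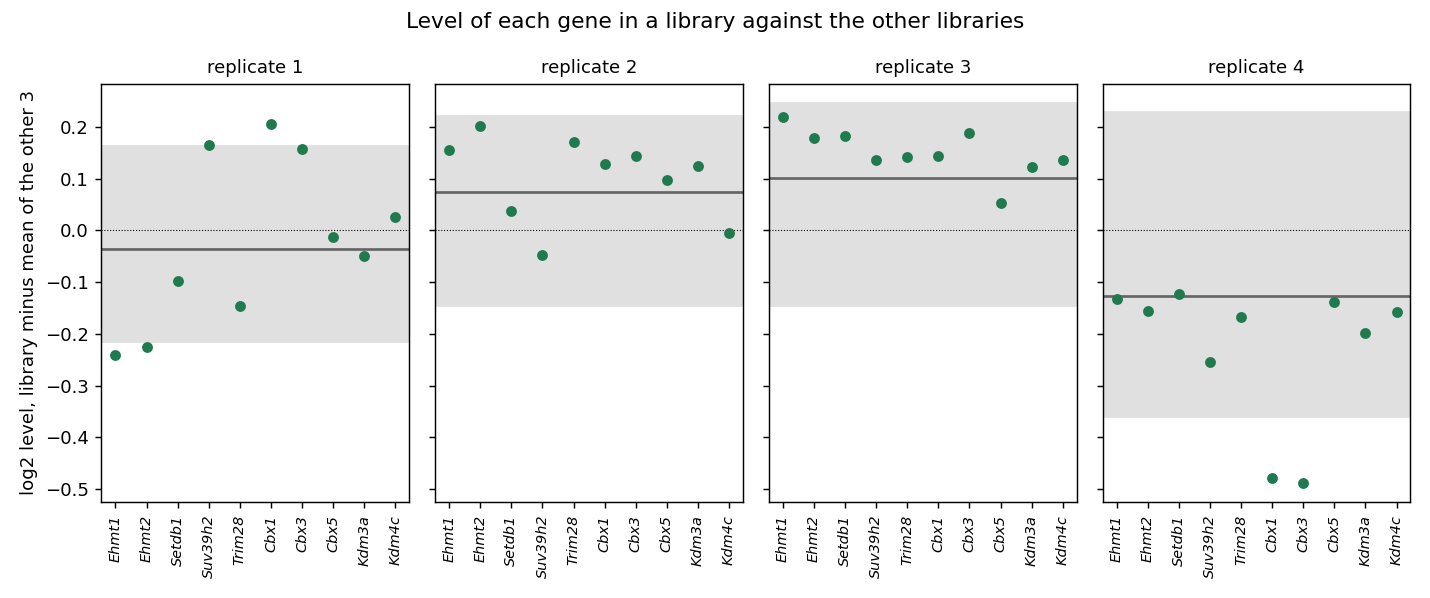
Level of each member in a library minus its mean in the other 3 libraries, on the log2 scale, one panel per replicate. The line is the median of all genes tested and the band their 10th to 90th percentile. In replicate 4, Cbx1 at -0.48 and Cbx3 at -0.49 lie below the band and the other members within it.

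Other genes of the pathway were described by a list of 29 further writers, partners, readers and erasers, 28 of which are listed with values. Of the 20 autosomal ones tested, 10 were called higher on S129 and 3 higher on CAST, beside 28.9% and 32.5% of all autosomal genes. With the chromosome medians taken out 8 and 3 were, beside 28.9% and 28.8%. By role, 2 of 2 writers, 4 of 5 partners of writers, 2 of 6 readers and 2 of 7 erasers were called toward S129, and 1 partner, 1 reader and 1 eraser toward CAST.

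Among the autosomal genes of the list, the largest difference belonged to Zfp57, the KRAB zinc finger protein that brings Trim28 to imprinted loci, with 39.8 RPKM on S129 and 10.8 RPKM on CAST (1.88 on the log2 scale, limma adjusted p = 6.7e-05). The writer Prdm16 followed at 1.22 (limma adjusted p = 0.0014) from a low level of 0.611 RPKM, and Atf7ip2, a relative of the Setdb1 cofactor Atf7ip, at 0.97 (limma adjusted p = 0.00050), of which 0.29 remained with the median of chromosome 16 taken out. Toward CAST, the largest autosomal differences were those of Zfp644, a zinc finger partner of Ehmt1 and Ehmt2, at -0.35 (limma adjusted p = 0.0021), the chromodomain protein gene Cdyl at -0.34 (limma adjusted p = 0.0024) and the eraser Kdm4b at -0.23 (limma adjusted p = 0.0035).

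The highest levels of the list were 121.7 RPKM for Uhrf1, which links H3K9 methylation to DNA methylation, 85.0 RPKM for Morc2a, which works with the HUSH silencing complex, and 53.4 RPKM for Zfp809, a KRAB zinc finger protein that targets retroviral sequence. All 3 were below the deposited levels of Trim28 and Cbx3, and Zfp809 was near Cbx1. Suv39h1, the X-linked relative of Suv39h2, stood at 4.40 RPKM on its S129 allele and at 0.009 RPKM on CAST, so its mean over alleles of 2.20 RPKM compares with 4.12 RPKM for Suv39h2.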

How the data were processed

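RNAseq of 4 libraries of untreated F123-ESCs was examined. The authors removed ribosomal RNA reads with SortMeRNA, trimmed with Trimmomatic (0.40 in the submitters' processing notes), aligned with STAR to mm10 masked at strain SNPs and divided reads by SNPsplit. They deposited RPKM per gene, allele and library, the average over libraries and its log10(RPKM+1), the latter for neither tests nor levels here. The counting program, annotation and strand setting are not given in the sources used here. Columns were matched to libraries by allele and number; the first S129 column carries a minus sign before its number and was taken as replicate 1, and 0 columns belonged to other samples.

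Totals and lengths behind the deposited RPKM were recovered from the steps between values: for 94.5% of the 20243 genes above 0, and for all 10 members, a length from GENCODE M21 gave whole reads within 0.02 reads. The Poisson and exact binomial intervals cover counting error only, and reads carried no molecular identifiers. The limma intervals rest on the spread of the allele difference between libraries. Alleles were compared with limma 3.58.1 (R 4.3.3) on log2(RPKM+0.1), S129 minus CAST within each library, over 13341 genes with at least 1 RPKM summed over alleles, two-sided, with Benjamini-Hochberg adjustment and a threshold of 0.05. Alleles were paired because both columns of a number hold reads of the same library. The 0.1 RPKM added before the logarithm makes differences of low genes smaller on this scale. Medians of the chromosome or of genes within 5 Mb were taken out in each library.

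Members, lists and tests were chosen with earlier results of these data known. Named are the 10 members, Suv39h1, up to 3 autosomal genes of the wider list with the largest called difference in each direction, the 3 with the highest level, genes whose exons overlap a member, and pseudogenes of a member. Alternatives were another pseudocount, filters, a variance trend, rescaling, whole reads, no replicate block, exon length, each allele alone and each library left out. Scripts for limma and for read recovery were tested on simulated data.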

Additional observations from a re-analysis of the deposited data

Results flagged for a closer look

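The level (mean of both alleles) and the allele difference of the 10 members, 20 quantities in all, were examined for a library far from the other 3 by Dixon's criterion, which chance meets in about 1 of 20 groups. It was met by 2 levels, both for replicate 4 as the lowest library: the level of Cbx1 at 41.5 RPKM and the level of Cbx3 at 154 RPKM. Among the levels of all genes tested, 5.61% met the criterion in some library and 3.06% met it with replicate 4 as the lowest. The log2 allele difference of Cbx3 was -0.34, -0.33, -0.32 and -0.45 in replicates 1 to 4. There too replicate 4 lay far enough from the other 3 to meet the criterion. The allele differences of the other members did not meet it. How often allele differences of all genes met it was not computed.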

How the results depend on the processing

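Of the 7 calls between alleles, 6 toward CAST and 1 toward S129, the count toward S129 was 2 with at least 5 RPKM, with a variance trend, with the autosomal median taken out and with whole reads, in each case because Kdm3a was called (limma adjusted p = 0.035, 0.040, 0.029 and 0.014). It was 0 to 1 with one library left out, since Cbx5 was lost without replicate 1, 2 or 3, while the 6 calls toward CAST remained each time (limma adjusted p at most 0.025). With no replicate block, which ignores that both alleles were read in one library, the calls were 3 toward CAST (Setdb1, Ehmt2 and Kdm4c) and 0 toward S129. The difference of Suv39h2, not called in any setting, turned positive at 0.010 with the autosomal median, 0.00226 with the chromosome median and 0.015 with the 5 Mb median taken out, 0.042 with whole reads and ran from -0.037 to 0.031 with one library left out, positive without replicate 4. Kdm3a turned to -0.11 with the chromosome median and -0.14 with the 5 Mb median taken out. With exon lengths, Cbx3 minus Cbx5 turned to -0.26 and Cbx1 minus Cbx5 to -0.92. Of 130 values for the allele difference of single members, 111 kept direction and side of the threshold. With 4 libraries of one line and 1 cross direction, the strain and the parent of an allele cannot be told apart, and reads without SNPs were not counted, so the SNPs of each transcript limit comparisons between genes.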
